A study of Mus musculus with 4 samples.

Results

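The regions described here are stretches of open chromatin, away from any gene start, that gave a peak in a single library of differentiating mouse embryonic stem cells at day 2 and in no other library. They were chosen by the pattern of peaks in the deposited lists. Joining every set of overlapping peaks (1 bp sufficed) across the 4 libraries gave 40910 union regions, of which 22746 lay more than 1000 bp from every annotated transcript start. Of those distal regions, 6498 (28.6%) had a peak in exactly 1 day 2 library and in neither day 4 library. Replicate 1 of day 2 contributed 4074 of them and replicate 2 contributed 2424.

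Accessibility was measured by ATAC-seq, in which a transposase cuts open DNA and inserts sequencing adapters, in the wild-type ES-E14TG2a embryonic stem cell line grown as embryoid bodies in serum-free medium. The d2 group was collected before, and the d4 group after, treatment with Activin A, BMP4 and VEGF, the inducing factors of a protocol for cardiac mesoderm. Each group had 2 libraries, from separate differentiation experiments of the 1 line. Each library is a mixture of cells, so a weaker peak from fewer open cells cannot be told apart from one opened less in every cell.

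Distal open regions are often enhancers, short stretches of DNA that transcription factors bind to raise the transcription of a gene that may lie far away. In cells leaving the naive pluripotent state, factors of the POU, SOX, OTX and ZIC families bind many enhancers, whereas GATA, TEAD, ETS and forkhead factors occupy enhancers of mesoderm and of the heart and vessels. CTCF, a zinc finger protein that anchors chromatin loops, binds a long and well conserved motif in most cell types. A sequence match to such a motif describes the DNA and does not show that the factor was bound.

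The windows below were read from the GRCm38 plus strand (RefSeq), from 100 bp before to 100 bp after the summit. They are among the strongest regions by fold enrichment, or the strongest with a motif more frequent in the set than 2 kb downstream. They comprise 1 of the strongest of d2 replicate 1, the 2 strongest of d2 replicate 2 and the strongest with CTCF, with TFAP2 and with POU octamer letters, the last chosen after its values were seen. Capitals mark matches, on either strand, to CAGCTG or to the letters of GATA factors (written as AGATAA), of ZIC factors (written as CCTGCTG), of TFAP2 factors (GCCNNNGGC), of POU factors (the octamer ATGCAAAT) or of CTCF. The windows on chr3, chr1 and chr15 and that of the POU octamer were intergenic, whereas the strongest of d2 replicate 2 lay in an intron of Cdh8 and the window with GATA in an intron of Zyg11a.
CAGCTG matches, chr3:42039723-42039923, d2 replicate 1: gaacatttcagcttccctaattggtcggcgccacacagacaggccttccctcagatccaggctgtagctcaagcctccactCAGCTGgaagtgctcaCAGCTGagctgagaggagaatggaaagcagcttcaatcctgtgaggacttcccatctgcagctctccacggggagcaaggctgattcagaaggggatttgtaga
strongest of d2 replicate 2, chr8:99280499-99280699: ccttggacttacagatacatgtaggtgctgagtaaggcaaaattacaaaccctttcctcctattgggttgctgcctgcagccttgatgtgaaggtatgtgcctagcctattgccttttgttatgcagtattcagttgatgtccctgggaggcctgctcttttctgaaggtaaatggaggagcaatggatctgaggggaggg
GATA match, chr4:108182392-108182592, d2 replicate 2: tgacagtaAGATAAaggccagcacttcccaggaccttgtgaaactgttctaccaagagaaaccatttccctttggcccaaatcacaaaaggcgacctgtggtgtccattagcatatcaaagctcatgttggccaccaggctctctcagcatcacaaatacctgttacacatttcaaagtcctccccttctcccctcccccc
CTCF match, chr1:193376899-193377099, d2 replicate 2: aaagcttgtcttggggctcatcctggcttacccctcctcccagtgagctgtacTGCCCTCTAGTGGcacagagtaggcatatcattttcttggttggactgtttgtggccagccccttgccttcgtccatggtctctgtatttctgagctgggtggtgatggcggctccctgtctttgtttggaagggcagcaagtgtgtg
TFAP2 and ZIC matches, chr15:46087369-46087569, d2 replicate 1: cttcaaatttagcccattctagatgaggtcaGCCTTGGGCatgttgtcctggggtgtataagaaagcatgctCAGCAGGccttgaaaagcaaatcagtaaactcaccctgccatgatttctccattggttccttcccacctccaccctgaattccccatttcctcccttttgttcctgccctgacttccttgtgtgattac
POU octamer and CAGCTG matches, chr8:6974071-6974271, d2 replicate 1: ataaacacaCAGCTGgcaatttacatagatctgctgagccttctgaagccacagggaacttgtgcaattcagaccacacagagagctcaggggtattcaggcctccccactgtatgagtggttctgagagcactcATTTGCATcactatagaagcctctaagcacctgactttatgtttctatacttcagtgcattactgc

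Among the strongest regions of d2 replicate 1, the one on chr3 had a fold enrichment of 14.3 and 23 fragments over its summit, and lay only 773 bp from a peak of another library. In d2 replicate 2 the strongest region (fold 14.8, 22 fragments) lay 1041 bp from a start of Cdh8, a cadherin, and the next (20 fragments) 8607 bp from a start of Echdc2. Another 6 regions, also among the 5 strongest of their library, had folds from 12.3 to 13.4, and 3 of them lay in introns, those of Ptprd, Magi2 and Fgf14. These regions were exceptions in strength, as the next values show.

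Most of the regions were weak. Their median fold enrichment was 6.35 in d2 replicate 1 and 6.36 in replicate 2, and their median −log10 q was 6.41 and 6.93. In both libraries the median pileup, the number of fragments over the summit as implied by the deposited fold and −log10 p, was 10 (quartiles 9 and 13). By comparison, the distal regions with a peak in both d2 libraries and neither d4 library, termed replicated d2 regions here (n = 3871), had a median pileup of 14 in either library. The regions were also narrow, with a median width of 140 bp and 157 bp, against 204 bp and 209 bp for peaks of the replicated d2 regions in the same libraries. These values took part in the choice of the regions, since a weak peak is called less easily in a further library, and are given without a test.

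**Figure D1:**
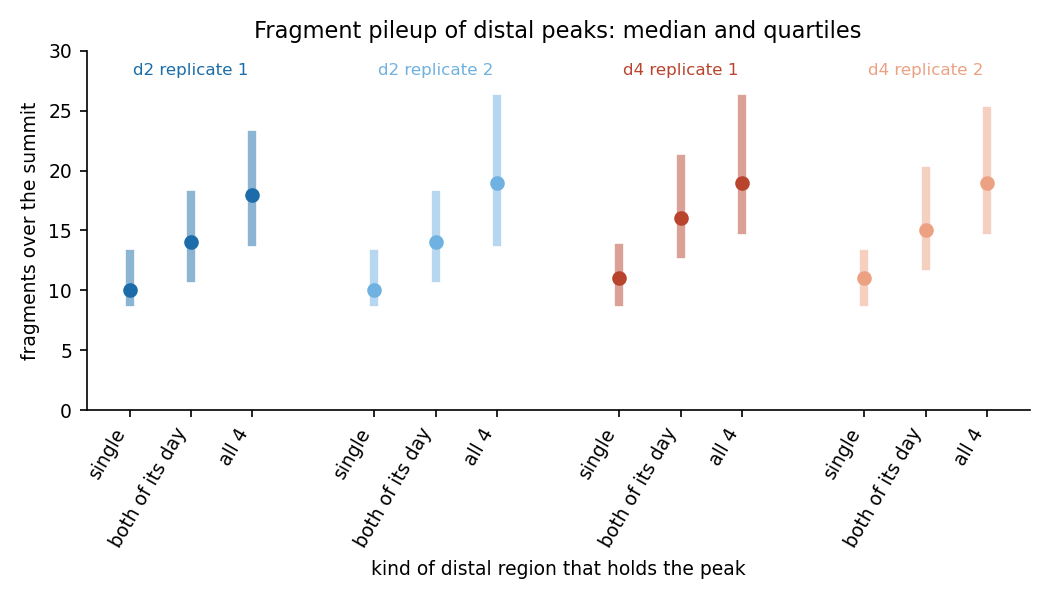
Fragments over the summit (linear axis) of distal peaks in each library, by whether the region had a peak in that library alone, in both libraries of its day only, or in all 4; points are medians and bars run from the lower to the upper quartile. The single-library peaks of d2 have a median of 10, those of replicated d2 regions 14, and those of regions open in all 4 libraries 18 and 19.

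How often a distal d2 peak stood alone fell steeply with its strength. Among d2 replicate 1 peaks with a −log10 q of 3 to 5, 895 of 1368 (65.4%, 95% Wilson interval 62.9 to 67.9) were in single-library regions, whereas 7 of 735 (0.952%, 0.462 to 1.95) were so at 20 or more. In d2 replicate 2 the same shares were 496 of 845 (58.7%, 55.3 to 62.0) and 5 of 984 (0.508%, 0.217 to 1.18). Both d4 libraries ran through the same range, from 61.6% and 55.3% to 0.751% and 0.372%. All intervals here cover counting error only. Standing alone is part of the rule, and a weak peak is called less easily in a further library, so these shares are a description.

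**Figure D2:**
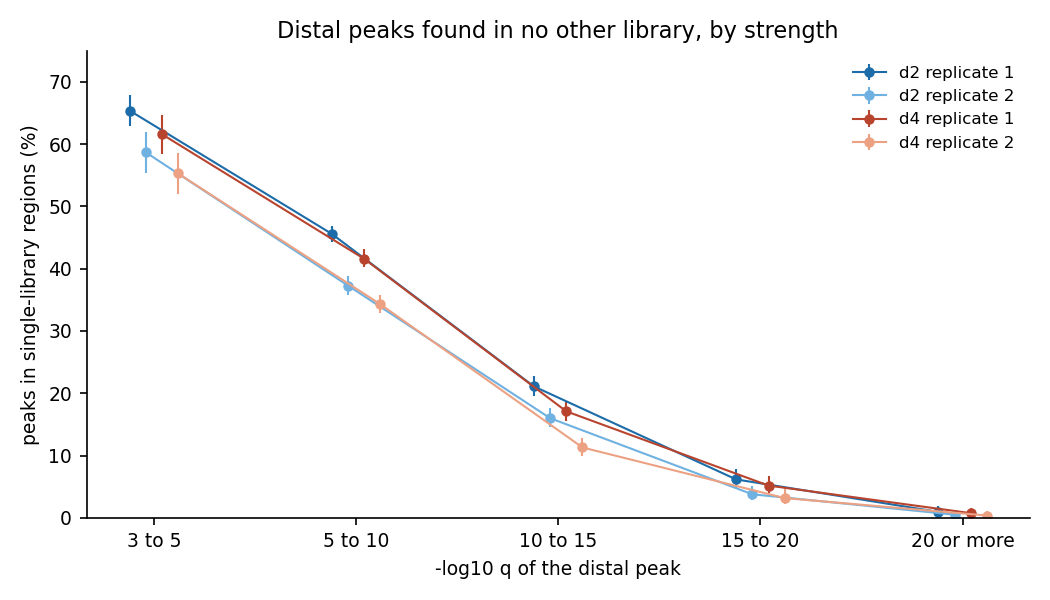
Percentage of each library's distal peaks that lay in a region found in no other library, by the −log10 q of the peak, with 95% Wilson intervals. In every library the share falls from over 55% in the weakest bin to under 1% in the strongest.

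Single-library regions were 36.1% of the distal regions of d2 replicate 1 and 26.3% of those of replicate 2, against 30.2% and 24.9% in d4 replicates 1 and 2. The groups overlapped, with means of 31.2% ± 6.96 (SD, n = 2) and 27.5% ± 3.76 (SD, n = 2) and an exact two-sided permutation p = 0.667. With 2 libraries against 2, that test cannot go below 0.333. The rule chose the d2 regions by this same pattern of peaks, so the shares are a description. d2 replicate 1 had the most peaks (26865, with 24544 in d2 replicate 2 and 21299 to 22511 at d4). The lowest background cover of a peak was 0.568 and 0.483 fragments in the d2 libraries and 0.744 to 0.755 in the d4 libraries, so the d2 libraries had 64.0% to 75.2% of the depth of the deepest by this measure. The part of depth in the number of regions was not tested.

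The cells were checked by peaks within 1000 bp of marker starts. Of 5 pluripotency genes, 4 and 5 had such a peak in the d2 libraries and 1 and 2 in the d4 libraries (replicate 1 first), with Pou5f1 and Zfp42 in the d2 libraries alone and Sox2 in all 4. Of 4 primed epiblast genes it was 2 and 4 at d2 and 2 and 2 at d4, with Otx2 in both d2 libraries and neither d4 library and Pou3f1 in all 4. Of 5 endothelial genes it was 3 and 3 at d2 and 5 and 3 at d4, since Kdr, Tal1 and Etv2 had one in all 4 libraries and Cdh5 and Pecam1 in d4 replicate 1 only. Of 4 mesoderm genes it was 3 and 4 at d2 and 1 and 3 at d4. Among 4 genes of other lineages, Foxa2 and Cdx2 had one in both d2 libraries and neither d4 library, Runx1 in all 4 and Sox1 in none. Longer lists went otherwise for endothelial genes, with 32 and 36 of 50 at d2 and 28 and 29 at d4. Of 33 naive and general pluripotency genes it was 25 and 28 at d2 and 19 and 20 at d4. Of 28 cardiac and cardiopharyngeal genes it was 15 and 16 at d2 and 17 and 18 at d4. Of 20 ubiquitously expressed genes it was 18 in every library. Some other lists also had fewer at d4, so a fall was not particular to pluripotency genes. Neural and neural crest genes had 17 and 21 of 26 at d2 and 13 and 9 at d4. Signalling genes had 38 and 40 of 42 at d2 and 35 and 32 at d4. Haematopoietic genes overlapped between the days, with 10 and 12 of 21 at d2 and 11 and 10 at d4. Nanog, Fgf5, Dnmt3b and Mesp1 had a promoter peak in d2 replicate 2 and none in replicate 1. The d2 libraries thus did not show the same set of marker promoters, and regions found in 1 of them are described separately below.

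At the limits of the rule the regions ran on without a break. The nearest inside lay 1002 bp from a start of Fabp3-ps1 and 1003 bp from starts of Mpp4 and Etv5, with folds of 6.49, 6.41 and 5.06 in d2 replicate 1. The nearest outside lay 999 bp from Zyg11a, 998 bp from Mir342 and 996 bp from Slc12a4, with folds of 6.15, 9.75 and 5.27. Between 1000 and 1100 bp there were 69 regions with a median fold of 5.82, and between 900 and 1000 bp there were 70 with a median of 6.14. For the overlap itself, 21 members lay under 20 bp from a peak of the other d2 library (median fold 6.01), while 19 replicated d2 regions rested on an overlap of at most 20 bp (median fold 6.09).

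Few of the regions were near misses of a shared peak. Only 189 of 4074 (4.64%) in d2 replicate 1 and 153 of 2424 (6.31%) in d2 replicate 2 had a peak of any other library less than 500 bp away. The median distance to such a peak was 16.5 kb and 13.6 kb. Where a near miss existed it was more often a peak of the other d2 library, with 138 and 110 regions, than one of either d4 library, with 41 to 59.

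By position, the regions were mostly intronic (2719, 41.8%) or intergenic (3081, 47.4%), and 488 (7.51%) overlapped an exon outside UTRs, 195 a 3′ UTR and 15 a 5′ UTR. Their median distance to a transcript start was 12.6 kb (quartiles 5.29 and 30.2 kb), equal to the 12.6 kb of the replicated d2 regions. Over the libraries it was 13.7 kb in d2 replicate 1 and 11.3 kb in replicate 2, and 14.9 and 14.6 kb for the single-library regions of d4. Both d2 values were lower than both d4 values, the mean difference of −2.28 kb being only a little larger than the SD between the d2 libraries (1.69 kb), and the exact permutation p of 0.333 is the smallest possible here. Without d2 replicate 2 the difference was −1.33 kb, and with the 15000 peaks of lowest p in each library it was −1.40 kb and the days overlapped. On average 11.4% of a window was repeat sequence (soft-masked in the reference) in both d2 sets, near the 10.99% of the replicated d2 regions, against 8.86% to 9.45% in the single-library regions of d4.

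The regions lay somewhat nearer to replicated d2 regions than the d4 single-library regions did. In d2 replicate 1, 937 of 4074 (23.0%, 21.7 to 24.3) had a replicated d2 region within 50 kb, and in d2 replicate 2, 590 of 2424 (24.3%, 22.7 to 26.1). The single-library regions of d4 had one in 19.5% and 20.9% of cases. A distal region with a peak in both d4 libraries and neither d2 library (n = 3566, replicated d4 regions) was within 50 kb of 16.9% and 18.4% of the d2 regions, and of 24.4% and 23.8% of those of d4. The mean differences of d2 minus d4 were 3.45 and −6.47 percentage points. In both measures the d2 libraries did not overlap the d4 libraries, the SDs within a group were 0.420 to 1.05 points, and the exact two-sided permutation p was 0.333. Of the regions of d2 replicate 2, 26.8% had one of d2 replicate 1 within 50 kb, and 16.1% conversely. Between the single-library regions of d4 it was 19.3% of those of replicate 2, and 15.1% conversely. These shares ranked as the number of regions searched for did (4074, 2424, 2883 and 2128 in the order given). Closeness beyond that number was not tested.

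**Figure D3:**
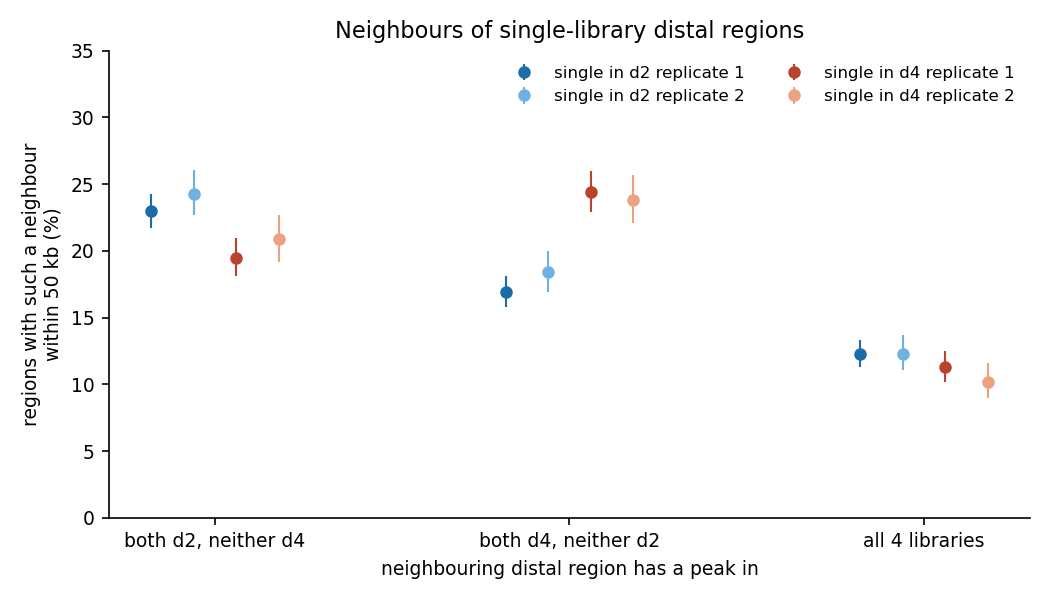
Percentage of single-library distal regions with another distal region within 50 kb, by the kind of that neighbour and the library of the region, with 95% Wilson intervals. The d2 regions have replicated d2 neighbours in 23.0% and 24.3% of cases and replicated d4 neighbours in 16.9% and 18.4%, while for the d4 regions the order is turned.

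The DNA under the summits differed between the single-library regions of day 2 and those of day 4. Of 28 motifs searched on both strands of the summit windows, 12 (42.9%) were more frequent in the single-library regions of both d2 libraries than in those of both d4 libraries, and 9 (32.1%) were less frequent. For 11 of the 12 and all 9, the interval of the pooled difference (95%, Newcombe) excluded 0. The exception was the SOX motif (ACAATGG), whose difference was 0.630 points (−0.0577 to 1.30). Each such motif reached the exact permutation p of 0.333 over libraries, the smallest possible. The intervals count each region as a unit and do not cover the spread between the libraries of a day.

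The GATA motif (AGATAA), bound by GATA factors of mesoderm, endoderm and blood, showed the widest difference. It was in 6.26% (5.56 to 7.05) of the d2 replicate 1 regions and 5.40% (4.57 to 6.38) of the d2 replicate 2 regions. In the single-library regions of d4 it was in 27.4% and 28.2%, so that the pooled difference was −21.8 points (−23.2 to −20.5). Of all distal windows 16.3% held it, and windows 2 kb downstream of the d2 regions held it in 10.8% and 9.82%. The d2 shares were thus lower than in the DNA nearby, as was that of the replicated d2 regions (5.68% against 10.7% downstream). The GC content of the nearby windows is not given, and its part was not tested. MEIS (written as TGACAG, 13.5% in each d2 set against 21.7% and 23.1%), TEAD (written as ACATTCC, 2.90% and 2.76% against 8.39% and 6.86%) and AP-1 (written as TGANTCA, 6.55% and 6.72% against 11.6% and 10.6%) were also lower at d2 than at d4. Unlike GATA, these were near their shares 2 kb downstream of the d2 regions, which were 13.4% and 14.4% for MEIS, 3.14% and 2.52% for TEAD and 5.65% and 6.15% for AP-1. Of all distal windows, 17.4% held MEIS, 5.34% TEAD and 8.52% AP-1. The motifs of ETS factors such as ERG (ACAGGAAG, in 4.30% of all distal windows), of forkhead factors (written as TGTTTAC, 4.41%), of RUNX factors (written as TGTGGTT, 5.45%), of TCF and LEF (written as ATCAAAG, 3.93%) and of T-box factors (AGGTGTGA, 1.22%) were also lower at d2.

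Among the motifs higher at day 2, the POU octamer, read by OCT4 and related factors, was in 3.07% (2.58 to 3.64) and 3.51% (2.84 to 4.32) of the d2 regions. The d4 regions held it in 0.763% and 0.846%, and all distal windows in 2.48%. The ZIC motif was in 20.2% and 19.3% against 13.3% in both d4 sets, and in 17.9% of all distal windows. It was also far above the 4.52% and 4.87% found 2 kb downstream. OTX (written as TAATCC, the homeodomain motif of OTX2) was in 9.25% and 8.33% against 5.97% in both d4 sets, though the downstream windows held it in 8.44% and 8.42%. All distal windows held it in 7.63%.

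The other motifs higher at d2 were rarer or nearer to each other. KLF and the GC box are described below with the differences between the d2 libraries, and CTCF with the replicated regions. NF-Y (CCAATNAG) was in 3.80% and 4.91% of the d2 regions against 2.81% and 2.96%, and in 3.96% of all distal windows. The CACGTG E-box of MYC and USF factors was in 3.07% and 4.17% against 2.29% and 2.58% (3.13% of all). The site of the grainyhead factors (GRHL, AACCNGTT) was in 2.09% and 1.49% against 0.937% and 1.27% (1.75% of all). The GABPA type of ETS site (written as CCGGAAG) was in 2.28% and 2.56% against 0.798% and 1.50% (2.10% of all), and the YY1 site (AAGATGGCG) in 0.344% and 0.454% against 0.139% and 0.235% (0.255% of all). The sites of ESRRB (TCAAGGTCA), NRF1 (GCGCATGCG), RFX factors (GTTGCCATG) and HOX with PBX (TGATTNAT), with 0.167% to 1.68% of all distal windows, gave shares that overlapped between the days.

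The windows of day 2 were richer in G and C, with a mean of 52.5% and 55.4% against 50.3% in both d4 sets (difference 3.60 points, exact permutation p = 0.333). Motif shares were therefore read again in windows of 50 to 55% GC only, an alternative added after the data were seen. There GATA was in 5.82% and 5.47% of the d2 regions and in 25.2% and 23.4% of the d4 regions. The POU octamer was in 2.83% and 4.65% against 0.708% and 0.574%, and CTCF in 7.81% and 6.02% against 3.64% and 2.87%. There the motifs more frequent in both d2 sets fell from 12 to 9, since SOX, the CACGTG E-box and the GABPA type of ETS site overlapped between the days. SOX, for example, was in 2.99% and 5.61% at d2 and 4.04% and 2.58% at d4. Of the 9 that stayed, KLF was barely apart, with 9.34% and 11.9% at d2 and 8.49% and 9.33% at d4. Its intervals overlapped between the days. The GC box was in 0.995% and 0.821% at d2 and 0.506% and 0.717% at d4. The less frequent motifs again numbered 9, with TCF/LEF lost and the CAGCTG E-box gained.

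**Figure D4:**
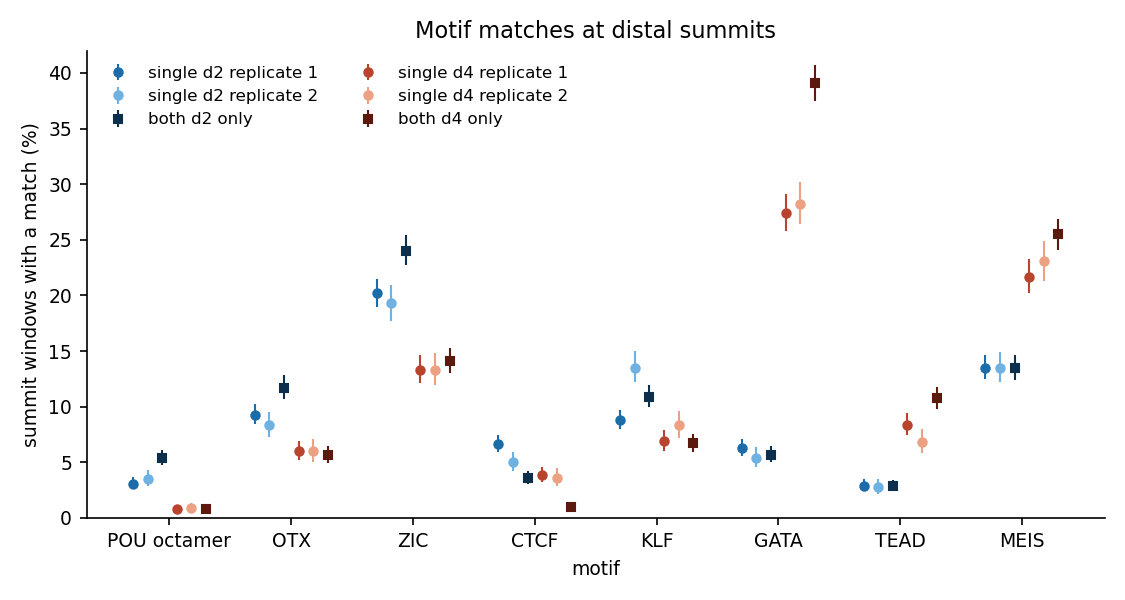
Percentage of summit windows (100 bp on each side) with at least 1 match to each of 8 motifs, with 95% Wilson intervals; circles are single-library regions of each library, squares are regions with a peak in both libraries of 1 day and neither of the other. The single-library d2 regions hold GATA in 6.26% and 5.40% of windows, close to the 5.68% of replicated d2 regions, and the d4 regions in 27.4% and 28.2%.

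The ZIC, POU octamer and CTCF matches gathered around the summits. Counting regions with a match centred in each 50 bp bin out to 1000 bp, ZIC was in 7.02% of the d2 replicate 1 regions and 6.27% of the d2 replicate 2 regions in the central bin, against medians of 1.44% and 1.67% in bins at least 500 bp away. ZIC gathered in the single-library regions of d4 too, with 4.23% at the centre and 1.25% away in both sets. The POU octamer was in 1.08% and 1.20% of the d2 regions at the centre and 0.368% and 0.248% away from it. At the centre of the d4 regions it was in 0.243% and 0.141%, below the 0.382% and 0.352% farther out. GATA showed the opposite order, with 1.20% and 0.949% at the centre of the d2 regions and 3.22% and 2.76% away, and 8.39% and 8.98% at the centre of the d4 regions. CTCF matches of the d2 regions were most frequent in the bins next to the summit bin, with 2.26% and 2.43% at 50 bp before and after it in d2 replicate 1 and 1.79% on it. In d2 replicate 2 the same bins held 1.98%, 1.77% and 0.949%. CTCF also gathered in the d4 regions, with 0.937% and 0.611% in the central bin and medians of 0.0347% and 0% away.

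**Figure D5:**
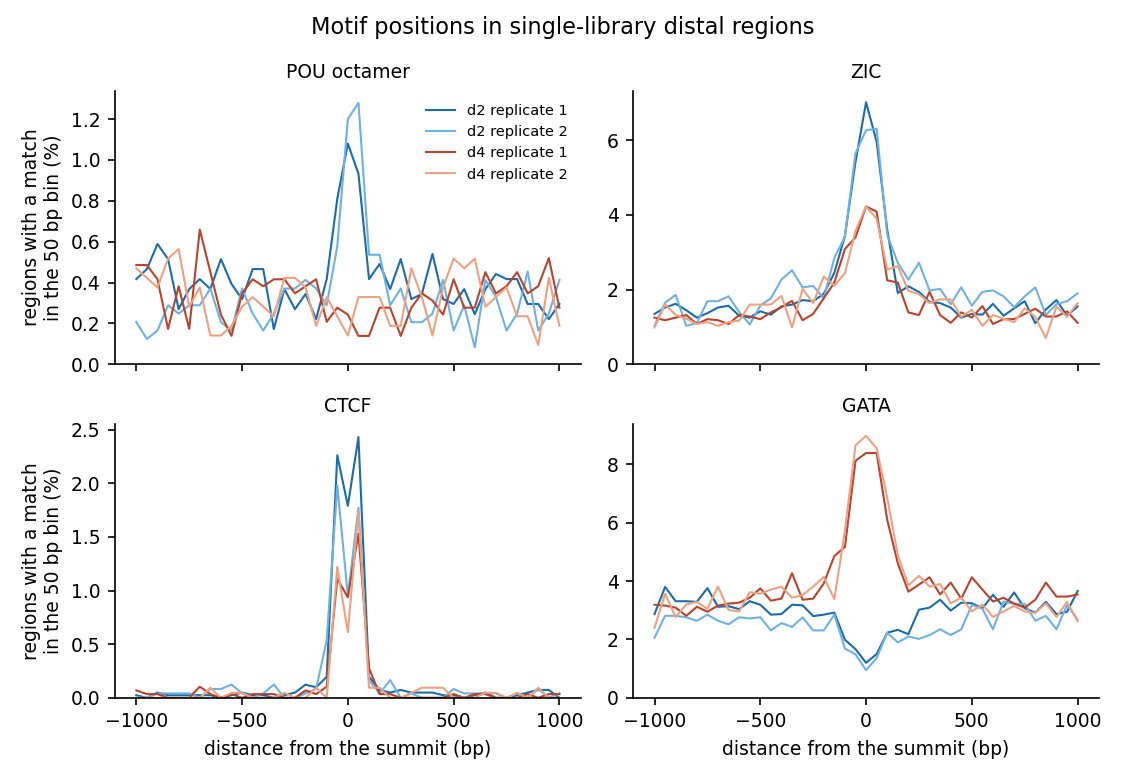
Percentage of single-library distal regions with a match centred in each 50 bp bin, by distance from the summit in bp, for 4 motifs and each library. ZIC and POU octamer matches are most frequent at or within 50 bp of the summit of d2 regions and CTCF matches 50 bp to either side of it, whereas GATA dips there and peaks at the summit of d4 regions. ZIC and CTCF matches also gather around the summits of d4 regions.

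Compared with the replicated d2 regions, the single-library regions held several motifs at other shares. Of the 28 motifs, 8 (28.6%) were less frequent in both single d2 sets than in the replicated d2 regions and 7 (25.0%) were more frequent. The interval of the pooled difference excluded 0 for 6 of the former (POU octamer, SOX, ZIC, OTX, GRHL and the CAGCTG E-box) and for 2 of the latter (CTCF and a partial site of the repressor REST, TTCAGCACC, held by 0.510% of all distal windows). Taken by library, the interval held 0 for GRHL in d2 replicate 1 (−1.26 to 0.0962). In d2 replicate 2 it held 0 for the CAGCTG E-box (−3.13 to 0.928) and the REST site (−0.162 to 0.525). The count of more frequent motifs was 11 with distal set at beyond 2500 bp and 4 with protein-coding starts only. Counting error alone often puts both single shares on the same side of a common share, so the counts of 8 and 7 are a description.

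The POU octamer was in 5.37% of replicated d2 regions, and the pooled share of the single d2 regions minus this was −2.14 points (−3.00 to −1.33). ZIC was in 24.0% of them and OTX in 11.7%, with differences of −4.16 (−5.83 to −2.51) and −2.79 (−4.04 to −1.58) points. SOX was in 5.30%, against 3.73% and 4.08% of the single sets and 3.64% of all distal windows. The CAGCTG E-box of helix-loop-helix factors was in 20.7% against 17.3% and 19.6%, and in 19.3% of all distal windows, and TFAP2, at 9.83% of all, was in 9.17% against 9.25% and 11.3%. In windows of 50 to 55% GC the POU octamer was in 4.08% of the replicated regions, below the 4.65% of d2 replicate 2, so that its lower share there held in d2 replicate 1 only. GATA, by contrast, was in 5.68% of replicated d2 regions, with a difference of 0.257 points whose interval ran from −0.692 to 1.17.

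CTCF went the other way. Its motif was in 272 of 4074 regions (6.68%, 5.95 to 7.48) of d2 replicate 1 and 121 of 2424 (4.99%, 4.19 to 5.93) of d2 replicate 2, but in 3.56% (3.03 to 4.20) of the replicated d2 regions. The pooled difference was 2.48 points (1.64 to 3.29), and in windows of 50 to 55% GC the shares were 7.81%, 6.02% and 4.42%. Only 0.0982% and 0.124% of the windows 2 kb downstream held it. Distal regions open in all 4 libraries held it in 7.24%, and all distal windows in 4.92%. The single-library regions of d4 held it in 3.82% and 3.62%, again above their replicated counterparts (0.953%).

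CTCF matches were not concentrated among the faintest peaks. In d2 replicate 1 they were in 4.69% (3.49 to 6.28) of single regions with a −log10 q of 3 to 5 and in 7.54% (5.73 to 9.85) of those at 10 or more. The same shares in d2 replicate 2 were 1.61% (0.819 to 3.15) and 7.06% (4.96 to 9.95). The intervals overlapped in d2 replicate 1 and did not in replicate 2. The POU octamer rose from 2.23% to 4.71% and from 3.43% to 4.87%, with intervals that overlapped in both libraries. Since some CTCF letters contain those of ZIC, ZIC was also counted outside CTCF matches, where it was in 19.2% and 18.6% of the d2 regions and 23.4% of the replicated ones.

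The sets of d2 replicates 1 and 2 also differed from each other. The regions of d2 replicate 2 were richer in GC (55.4% against 52.5%, with SDs over windows of 7.22 and 6.32) and in CpG dinucleotides (5.14 against 3.69 per window), and overlapped exons more often (9.36% against 6.41%). The KLF motif (GGGNGTGG), read by the KLF pluripotency factors among others, was in 13.5% of them against 8.81% in d2 replicate 1, a difference of 1 minus 2 of −4.72 points (−6.36 to −3.13). All distal windows held KLF in 9.60%, and the single-library regions of d4 in 6.90% and 8.32%. The replicated d2 regions held KLF in 10.9%, between the shares of both d2 sets. The GC box (GGGGCGGGG) of SP and KLF factors, in 2.38% of all distal windows, was in 4.04% against 1.72% (−2.32, −3.26 to −1.48). The single-library regions of d4 held the GC box in 0.694% and 0.893%, and the replicated d2 regions in 3.23%. The letters of the KLF motif and the GC box can overlap in a window. CTCF was instead more frequent in d2 replicate 1, by 1.68 points (0.496 to 2.82). Of all single-library regions of d2 replicate 2, promoters included, 63.2% were distal, against 76.8% in replicate 1. In windows of 50 to 55% GC, KLF was in 11.9% and 9.34%, with intervals that overlapped. Chromosome shares differed too, most on chromosome 3 (6.48% of replicate 1 and 3.67% of replicate 2) and chromosome 5 (5.15% and 7.67%).

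Assigned to the nearest transcript start, the regions fell to 5374 of the 13676 genes that had any distal region. For 4491 of the 5374 genes (83.6%) there was a single one, and 14 genes had 5 or more. Regions of both d2 libraries fell to 444 genes (8.26%), while 956 (17.8%) also had a replicated d2 region and 789 (14.7%) a replicated d4 region. Among all genes with a distal region these last shares were 24.8% and 22.3%. That set includes genes that entered it only through such a replicated region, so the comparison cannot show a depletion. Of the 4249 genes with a single-library region of d4, 326 (7.67%) had regions of both d4 libraries, and 17.2% and 19.9% also had a replicated d2 or d4 region. The nearest gene is a label of place and need not be the gene that a region acts on.

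Casz1, a zinc finger factor needed in heart and vessel development, had the most, with 7 of its 9 distal regions. Of these, 6 came from d2 replicate 2 and 1 from d2 replicate 1, and 6 of the 7 lay in its introns. In d2 replicate 2 their folds were 6.66, 6.55, 5.33, 4.94, 5.05 and 5.56, and the one of d2 replicate 1, at chr4:148881023-148881326, had 5.96. None of the 7 exceeded 18 fragments, and Casz1 had no replicated region of either day. Celf2, an RNA-binding splicing regulator, Igdcc3, a cell surface protein of the immunoglobulin family, and Ptprm, a receptor tyrosine phosphatase, had 6 each. All 6 of Ptprm were intronic, with folds from 5.10 to 9.10.

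Dnmt3a, the de novo DNA methyltransferase that rises as cells leave naive pluripotency, had 5 of its 8 distal regions in the set. All 5 lay in its introns. In d2 replicate 1 they had folds of 7.12 (chr12:3825749-3825998) and 4.74, and in d2 replicate 2 folds of 8.78 (chr12:3852679-3852855), 6.36 and 4.34. The ZIC motif was in 3 of the 5, and Dnmt3a had 1 replicated d2 region and no replicated d4 region. Adcy5 (an adenylyl cyclase), Bcor (a corepressor that joins Polycomb proteins), Ccm2l (a relative of the vascular gene Ccm2) and Ebf3 (a helix-loop-helix factor of neural lineages) also had 5 each. At Bcor and at Ebf3 a region of d2 replicate 1 lay within 500 bp of one of d2 replicate 2 without touching it.

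Gene lists of cell states gave shares near the 28.6% of all distal regions in most cases. Primed epiblast genes had 15 of 42 distal regions in the set (35.7%, 23.0 to 50.8), and they came with 11 replicated d2 and 1 replicated d4 region. Besides Dnmt3a, Etv5 (an ETS factor) and Grhl2 (a grainyhead factor) had 2 each. Naive and general pluripotency genes had 11 of 32 (34.4%, 20.4 to 51.7), with 2 of them at Tcl1. Neural and neural crest genes had 20 of 45 (44.4%, 30.9 to 58.8), the one list whose interval lay above 28.6%. Among them Pax7, a paired box factor, had 3 and Lhx5, a LIM homeodomain factor, had 2. With 14 lists described and no adjustment, this is given as a count and not as a call.

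Early mesoderm genes had 12 of 30 (40.0%, 24.6 to 57.7). All 3 distal regions of the forkhead gene Foxc1 were in the set, with folds of 4.67, 6.82 and 4.66, and the segmentation clock gene Hes7 had 2 of 3. Endothelial genes had 26 of 75 (34.7%, 24.9 to 45.9). Nrp1, a co-receptor for VEGF, had 3 of its 4 distal regions in d2 replicate 1 alone, with folds of 7.65, 5.12 and 9.90, of which the strongest, at chr8:128491811-128491985, lay in an intron and had 17 fragments. Ets1 and Ets2, factors of the ETS family, had 2 each. The cluster of endothelial genes that the study drew from embryo cells had 78 of 286 (27.3%, 22.4 to 32.7), with 32 replicated d2 and 65 replicated d4 regions. Its leading genes besides Nrp1 were the tetraspanin Cd9 and the collagen Col18a1, with 3 each.

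Cardiac and cardiopharyngeal genes had 12 of 43 (27.9%, 16.7 to 42.7), each at another gene, and 9 of the 12 came from d2 replicate 2. Signalling genes of the Activin, BMP, VEGF, FGF, Wnt and Notch pathways had 20 of 61 (32.8%, 22.3 to 45.3). The BMP targets Id2 and Id1 had 3 and 2, and Bmper, an extracellular BMP modulator, 2. DNA methylation and chromatin regulators had 8 of 19 (42.1%, 23.1 to 63.7), of which 5 were those of Dnmt3a. Endoderm genes had 9 of 33, with 3 at Cubn, an endocytic receptor, and 2 at the chemokine receptor Cxcr4. Mesenchymal genes had 8 of 26, with 2 each at Dlk1 and Zeb2. Haematopoietic genes had 5 of 18, 2 of them at Tal1, a factor of blood and endothelium, and both of those had been seen in d2 replicate 1 with folds of 8.57 and 7.71. Trophoblast and surface ectoderm genes had 4 of 21 and ubiquitously expressed genes 3 of 10.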

How the data were processed

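ATAC-seq libraries of 2 d2 and 2 d4 samples were used, grouped by sample title. Per the study's methods, the authors used cutadapt for trimming and Bowtie2 for alignment to mm10, discarded mitochondrial, duplicate and multimapped reads, called peaks in each library with MACS2 in paired-end mode (no control is named), and removed blacklisted regions. Their deposited peak lists give fold enrichment (a linear ratio of pileup to local background), −log10 p and −log10 q values. No read counts were used, so no count model was run. From these, the fragment pileup at each summit was solved (whole within 0.01 for all peaks). Peaks were merged at 1 bp of overlap and distances taken to GENCODE M21 transcript starts, with sequence from RefSeq GRCm38. The tests were exact permutations over 4 libraries (6 arrangements), which measure only the spread between these samples, besides Wilson and Newcombe intervals (95%, Python 3.11.15, scipy 1.17.1). The pileup solution, the merging of peaks, the motif search and the intervals were tested on simulated data. The text names the 10 genes with most regions (model names left out, ties by symbol), up to 3 genes of each list with at least 2, and the 5 strongest regions of each d2 library, except a few items not reported here. Members, 28 motifs and 14 gene lists were chosen with earlier results of these data known. The depth in reads of each library is unknown here, and its precision was read from the pileups.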

Additional observations from a re-analysis of the deposited data

Results flagged for a closer look

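For 6 motifs the difference between single-library and replicated distal regions had 1 sign in both d2 libraries and the other sign in both d4 libraries. The difference between the days was not tested. With 28 motifs and 4 signs each, some such patterns arise by counting error alone, and several of the differences are far smaller than their counting error. The POU octamer was lower in single d2 regions by a mean of −2.09 points (−2.31 and −1.87), and 0.00594 and 0.0887 points higher at d4. OTX had −2.91 points (−2.45 and −3.37) at d2 and 0.329 and 0.331 at d4, and SOX −1.39 points at d2 and 0.644 and 0.334 at d4. T-box had −0.163 points at d2 against 0.410 and 0.402 at d4. MEIS had 0.0484 points at d2 and −3.78 and −2.42 at d4, and AP-1 0.155 points at d2 and −0.171 and −1.15 at d4.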

How the results depend on the processing

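Of 118 recomputed values, 112 kept their direction or, for counts, stayed within 1.5 times. The 112 include the differences with the replicate block, which cannot change, and the 38.0 and 41.5 points below, which follow from construction. The number of single d2 distal regions fell from 6498 to 2746 with only peaks of −log10 q of at least 10, and to 2634 with the 15000 peaks of lowest p per library. The count of motifs more frequent in single than in replicated d2 regions went from 7 to 11 with distal beyond 2500 bp and to 4 with protein-coding starts only, so it rests mostly on small differences. Leaving out 1 library moved the d2 minus d4 difference in the share of single-library regions from −34.7 to 41.5 points (−33.1 and −34.7 without d4 replicates 1 and 2, 38.0 and 41.5 without d2 replicates 1 and 2) by construction, since a library without its replicate shares few regions. The difference in distance to a start was −7.51 kb with protein-coding starts only and −1.33 kb without d2 replicate 2. It was −1.50 and −1.40 kb under those same restrictions on peaks, where the days overlapped (exact p = 0.667). The difference in replicated d2 neighbours was 1.59 points with 50% reciprocal overlap and 1.39 points within 10 kb. That in replicated d4 neighbours was −1.57 points within 10 kb.

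With the replicate block the differences were the same (3.70, 3.45 and −6.47 points, −2.28 kb and 3.60 points) and each exact p was 0.500, the smallest that pairing allows. The numbers need not mark shared experiments: over union regions, replicate 1 minus 2 at d2 and at d4 correlated at 0.00194. Without a d2 replicate, single and replicated d2 regions coincide, and likewise at d4, so neighbours of that day and single against replicated motif shares have no such value. Depth limits what a missing peak means, since a peak needed at least 6 fragments at d2 and 7 at d4.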
